A study of Mus musculus with 8 samples.

Results

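The genes described here are 10 components, regulators and targets of the YAP/TAZ and TEAD transcription system, chosen by name from the 12160 genes counted in immortalized mouse pancreatic stellate cells (PSCs). They are the coactivator genes Yap1 and Wwtr1 (which encodes TAZ), the DNA-binding factor Tead1, the pathway regulators Lats2, Amotl2 and Ajuba, the secreted matricellular targets Ccn1 and Ccn2, the nuclear cofactor Ankrd1 and the receptor tyrosine kinase gene Axl. All 10 were in the table and all 10 passed the filter on low counts in every comparison. PSCs are quiescent mesenchymal cells of the pancreas that can turn into matrix-producing fibroblasts, and those sequenced belonged to a single immortalized line grown in Matrigel domes, a 3D culture in a basement membrane gel. The domes were first kept for 4 days in DMEM with 10% serum. Then 3 domes received medium conditioned by KPC organoids with silenced Brca2 (shBrca2-CM), 3 received medium conditioned by KPC organoids with a control hairpin (shControl-CM) and 2 received control medium, each for 4 days. KPC organoids are mouse pancreatic cancer cells cultured in 3D. Brca2 was silenced in the organoids and not in the sequenced cells. The control medium is named DMEM in the sample titles and medium of the PSCs' own in the recorded treatment. The study's results and figure legends name growth medium (DMEM) as the control of this sequencing. Its methods for 3D cultures name the PSCs' own conditioned medium, so the sources differ and which of these was used is not settled by them. Conditioned medium was collected in DMEM with less serum than the growth medium held, so exposure to cancer-derived factors and a change of serum cannot be told apart in comparisons with control medium. The comparison of shBrca2-CM with shControl-CM, both collected in the same way, asks how the state of Brca2 in the cancer cells bears on the stellate cells.

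YAP and TAZ shuttle between cytoplasm and nucleus and have no DNA-binding domain. In the nucleus they bind TEAD factors, which recognise the GGAATG motif and its reverse complement CATTCC. The Hippo kinases LATS1 and LATS2 phosphorylate YAP and TAZ and keep them out of the nucleus, while stiff matrix, cell spreading, actin tension and serum lipids release them. In fibroblasts and stellate cells the system is known for its part in the response to matrix stiffness and in myofibroblast activation, and Ccn1, Ccn2, Ankrd1 and Amotl2 are widely used as readouts of its activity. The libraries measured RNA, so neither the phosphorylation nor the location of the YAP and TAZ proteins was measured.

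In the RefSeq promoter table (GRCm38.p6; 250 bases before to 50 bases after the annotated start), 8 of the 10 genes had an entry, with 10 windows in all, and Ccn2 and Tead1 had none. GGAATG was found on either strand in 9 of these 10 windows and in at least 1 window of all 8 genes, compared with 14.7% of all 32851 windows and 16.6% of all 27025 genes in the table. The genes were chosen as known parts or targets of the system, so this is a description of the choice as well as of the sequence. The second window of Lats2 held no match. The matches are printed below to show the letters that TEAD factors can read beside the genes whose levels follow. Each has 10 bases on either side, is written 5′ to 3′ on the strand of its gene, and carries the motif in capitals.
Yap1, chr9:8004722-8004747 (−), first base of the motif at -141 from the start: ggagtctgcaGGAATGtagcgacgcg
Wwtr1, chr3:57576031-57576056 (−), -136 and -170 from its 2 annotated starts: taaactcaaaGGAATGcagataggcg
Lats2, chr14:57746104-57746129 (−), position 5 after the start: tgacgcccgtGGAATGccaacaatgt
Amotl2, chr9:102717729-102717754 (+), -65: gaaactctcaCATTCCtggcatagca
Ajuba, chr14:54577832-54577857 (−), -186: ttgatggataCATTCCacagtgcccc
Ajuba, chr14:54577810-54577835 (−), -164: cccctccgcgCATTCCaactgtaaac
Ccn1, chr3:145650073-145650098 (−), -103: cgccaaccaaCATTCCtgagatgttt
Ankrd1, chr19:36120039-36120064 (−), -210: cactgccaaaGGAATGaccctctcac
Ankrd1, chr19:36119952-36119977 (−), -123: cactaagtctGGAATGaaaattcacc
Axl, chr7:25788951-25788976 (−), -233: aaattctacaGGAATGtttaccagac

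Ajuba and Ankrd1 each held 2 matches, and all the other windows with a match held 1. With the exception of the Lats2 match, which lies just after the start, all lay before the annotated start of their own window. The Amotl2 window belongs to a start inside the annotated locus, so its match lies within the gene. Neither the AP-1 motif TGANTCA nor a CArG box, the element bound by serum response factor, was found in any of the 10 windows, compared with 7.81% and 1.63% of all windows. These windows are short, a match is not a site shown to be occupied, and enhancers were not searched.

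**Figure D1:**
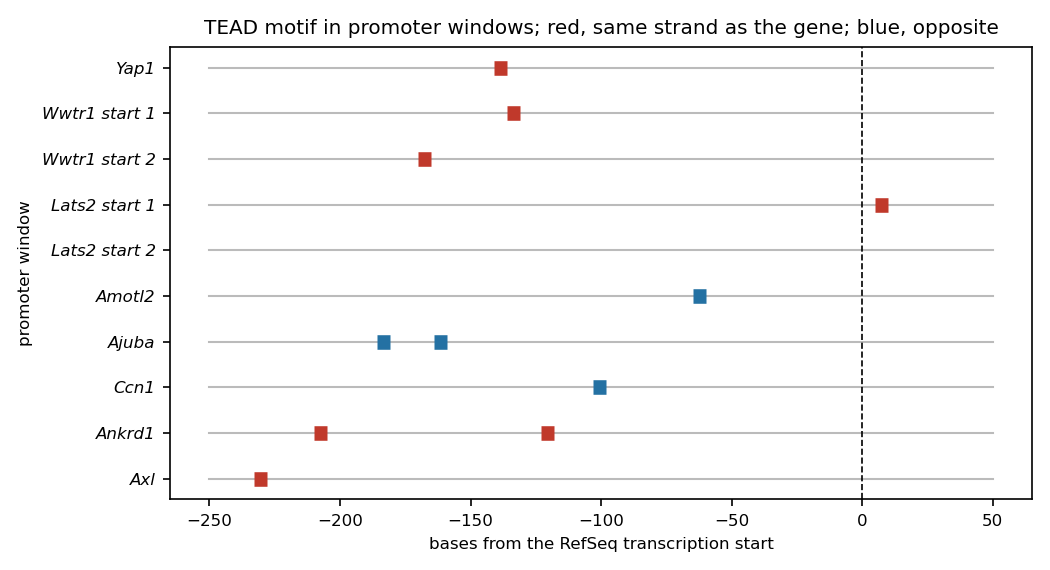
Positions of the GGAATG motif in the RefSeq promoter windows, in bases from the annotated transcription start (x axis), with 1 line per window (y axis); red squares lie on the strand of the gene and blue squares on the opposite strand. Of 10 windows, 9 held a match and the second window of Lats2 held none.

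Counts on genes summed to between 655996 and 1095534 with shBrca2-CM, between 1093609 and 1624392 with shControl-CM, and to 5476988 and 4623846 with control medium. Levels are given as CPM, counts scaled to a common library size after TMM normalization over all 8 libraries, and 3 counts, taken as the floor of detection, correspond to between 0.521 CPM (largest library) and 4.34 CPM (smallest). A difference was called at an adjusted p-value below 0.1, an absolute log2 fold change above 0.5 and a mean normalized count above 5. By these criteria 341 of 11035 genes (3.09%) differed between the conditioned media, 4488 of 12086 (37.1%) between shControl-CM and control medium, and 4555 of 12049 (37.8%) between shBrca2-CM and control medium. With 1 library left out the first count ranged from 128 (without shBrca2-CM replicate 2) to 976 (without shControl-CM replicate 1). The counts against control medium moved as well, the second to 5157 without shControl-CM replicate 1. The shares used as background below are those with no library of the pair left out, and they move with the libraries used. Of the genes called between the conditioned media 49.9% were higher with shBrca2-CM, and 67.5% of 369 when libraries were scaled by total counts, which moved the median of all genes from 0.03 to 0.14 on the log2 scale (and from -0.10 to -0.21 for shControl-CM against control medium). Of the 10 genes described here, those called were the same under both scalings. Both comparisons with control medium use the same 2 control libraries. All 10 stellate cell and fibroblast markers examined were detected in every library, with a summed level of 3120 to 3291 CPM with shBrca2-CM, 3912 to 4524 CPM with shControl-CM and 5428 to 6489 CPM with control medium. Single markers went both ways, with 3 called higher and 4 lower with shControl-CM against control medium and 4 higher and 4 lower with shBrca2-CM, for example Dcn at log2 fold changes of 4.50 and 3.56 and Vim at -3.38 and -2.68. Between the conditioned media Pdgfra was called higher (0.85) and Dcn (-0.93) and Lum (-1.59) lower with shBrca2-CM, of which only Dcn kept its call in all 5 other tools, scalings and filters tried (Pdgfra in 3 and Lum in 2). Of 8 epithelial markers only Krt18 and Krt19 were in the table (summed level 21.7 to 31.1, 7.69 to 21.1 and 26.6 to 27.5 CPM), with Krt18 called higher (2.43 and 2.66) and Krt19 lower (-3.18 and -1.03) with shControl-CM and shBrca2-CM against control medium and Krt19 higher with shBrca2-CM than with shControl-CM (2.12), a call that neither test of DESeq2 made. Of 4 immune markers the table held only Cd68 (8.71 to 18.6, 14.1 to 21.1 and 3.87 to 4.69 CPM), called higher with either conditioned medium than with control medium (adjusted p = 0.00187 with shControl-CM and 0.000272 with shBrca2-CM), and of 3 endothelial markers only Kdr, which had no count in 5 of the 6 libraries with conditioned medium. The part of these differences in the results below was not tested.

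No difference in the RNA of the coactivators was called in any comparison. Yap1 (chr9:7931999-8004638) was measured at 126, 119 and 142 CPM with shBrca2-CM, at 131, 139 and 130 CPM with shControl-CM and at 166 and 126 CPM with control medium. All 3 groups overlapped. The log2 fold change of Yap1 between shBrca2-CM and shControl-CM was -0.02 (SE 0.14, 95% interval -0.32 to 0.29, adjusted p = 0.98, edgeR's quasi-likelihood test). Against control medium it was -0.14 with shControl-CM (SE 0.17, adjusted p = 0.562) and -0.17 with shBrca2-CM (SE 0.16, adjusted p = 0.415). None of the 3 passed the thresholds.

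Wwtr1 (chr3:57455644-57575910) was at 46.3, 42.3 and 37.3 CPM with shBrca2-CM, at 47.4, 48.3 and 63.2 CPM with shControl-CM and at 53.5 and 63.8 CPM with control medium. Every shBrca2-CM library lay below every library of the other groups. The difference from shControl-CM did not pass (log2 fold change -0.33, SE 0.20, adjusted p = 0.547). Against control medium Wwtr1 had an adjusted p of 0.0365 with shBrca2-CM, but its log2 fold change of -0.50 (SE 0.20) fell just short of the threshold on size. It passed in 5 of 15 alternative settings, among them those without shBrca2-CM replicate 1 (-0.57), shBrca2-CM replicate 2 (-0.51) or control medium replicate 1 (-0.62).

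Tead1 (chr7:112679356-112906784), which encodes the DNA-binding partner of YAP and TAZ, was at 33.3, 48.5 and 59.5 CPM with shBrca2-CM, at 69.8, 58.9 and 56.4 CPM with shControl-CM and at 83.1 and 76.7 CPM with control medium. Both control libraries lay above all 6 libraries with conditioned medium, and the conditioned media overlapped. Tead1 fell with shBrca2-CM to 58.9% of the mean level in control medium (log2 fold change -0.72, SE 0.19, adjusted p = 0.00143). With shControl-CM it stood at 77.2% of that level, which did not pass (log2 fold change -0.38, SE 0.18, adjusted p = 0.134). The direct comparison of the conditioned media gave a log2 fold change of -0.34 (SE 0.22, 95% interval -0.82 to 0.14, adjusted p = 0.554), so a difference of Tead1 between them was not shown.

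**Figure D2:**
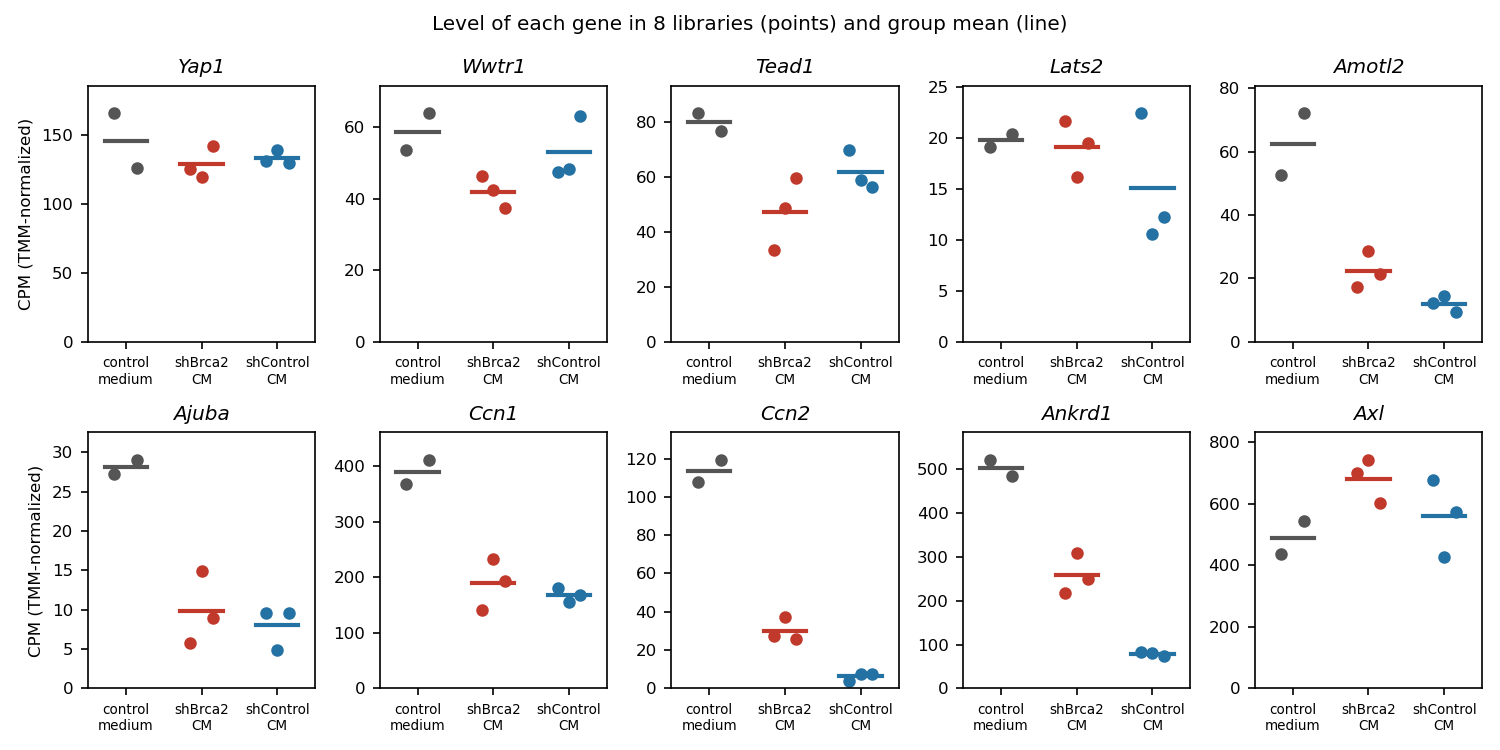
Level of each of the 10 genes in CPM after TMM normalization (y axes, from 0 and scaled per gene) in the 8 libraries (points), by medium (x axes); lines mark group means. Ccn2 and Ankrd1 separate into 3 levels, highest with control medium and lowest with shControl-CM, while the points of Yap1 overlap in all media.

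The pathway regulators did not move together. Lats2 (chr14:57689662-57746212), a Hippo kinase gene that is also a target of YAP, was at 21.7, 16.2 and 19.5 CPM with shBrca2-CM, at 22.4, 10.6 and 12.2 CPM with shControl-CM and at 19.1 and 20.4 CPM with control medium. The shControl-CM libraries spanned the values of both other groups. None of the differences passed, with log2 fold changes of 0.33 between the conditioned media (SE 0.35, adjusted p = 0.751), -0.36 with shControl-CM against control medium (SE 0.33, adjusted p = 0.426) and -0.05 with shBrca2-CM (SE 0.27, adjusted p = 0.911). Without shControl-CM replicate 1, the highest of its group, Lats2 was called lower with shControl-CM than with control medium (log2 fold change -0.77, adjusted p = 0.0709).

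Amotl2 (chr9:102717091-102733418) encodes an angiomotin that holds YAP in the cytoplasm and is itself induced by YAP. It was at 17.4, 28.6 and 21.3 CPM with shBrca2-CM, at 12.2, 14.5 and 9.51 CPM with shControl-CM and at 52.5 and 72.0 CPM with control medium, so the 3 groups did not overlap. Amotl2 fell to 19.4% of the control level with shControl-CM (log2 fold change -2.39, SE 0.28, adjusted p = 0.000195) and to 36.0% with shBrca2-CM (log2 fold change -1.46, SE 0.24, adjusted p = 3.18e-07). Its mean level with shBrca2-CM was 1.86 times that with shControl-CM. This difference did not pass after adjustment over all genes (log2 fold change 0.93, SE 0.33, unadjusted p = 0.0137, adjusted p = 0.21), although its 95% interval of 0.22 to 1.64 excluded 0. The counts behind it were 12, 23 and 24 against 19, 15 and 14.

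Ajuba (chr14:54567469-54577661) encodes a LIM-domain scaffold that binds and inhibits LATS kinases. It was at 5.79, 14.9 and 8.88 CPM with shBrca2-CM, at 9.61, 4.83 and 9.51 CPM with shControl-CM and at 27.3 and 29.0 CPM with control medium. The control libraries stood above all others, and the conditioned media overlapped. Ajuba fell to 28.4% of the control level with shControl-CM (log2 fold change -1.77, SE 0.33, adjusted p = 0.00243) and to 35.0% with shBrca2-CM (log2 fold change -1.50, SE 0.33, adjusted p = 4.65e-05). Between the conditioned media it rested on 4 to 15 counts per library, and the difference did not pass (log2 fold change 0.30, SE 0.45, adjusted p = 0.84).

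The targets Ccn1, Ccn2 and Ankrd1 all fell with both conditioned media, and Ccn2 and Ankrd1 also differed between them. Ccn1 (chr3:145646971-145649985), which encodes the secreted integrin ligand CYR61, was at 140, 233 and 193 CPM with shBrca2-CM, at 181, 156 and 167 CPM with shControl-CM and at 368 and 411 CPM with control medium. Every library with conditioned medium was below both control libraries, and the conditioned media overlapped. Ccn1 fell to 43.2% of the control level with shControl-CM (log2 fold change -1.22, SE 0.15, adjusted p = 0.000347) and to 48.4% with shBrca2-CM (log2 fold change -1.04, SE 0.15, adjusted p = 7.81e-08). The difference between the conditioned media was 0.19 on the log2 scale (SE 0.17, 95% interval -0.18 to 0.57, adjusted p = 0.704) and did not pass.

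Ccn2 (chr10:24595442-24598683), which encodes connective tissue growth factor (CTGF), a profibrotic matricellular protein, was at 27.5, 37.3 and 25.7 CPM with shBrca2-CM, at 3.84, 7.73 and 7.47 CPM with shControl-CM and at 108 and 119 CPM with control medium. The groups formed 3 separate levels. These values came from 19, 30 and 29 counts, from 6, 8 and 11 counts and from 620 and 555 counts. Ccn2 fell to 5.59% of the control level with shControl-CM (log2 fold change -4.20, SE 0.30, adjusted p = 4.36e-06) and to 26.6% with shBrca2-CM (log2 fold change -1.92, SE 0.21, adjusted p = 2.35e-12). The mean level of Ccn2 with shBrca2-CM was 4.76 times that with shControl-CM. Directly compared, its log2 fold change was 2.28 (SE 0.37, 95% interval 1.48 to 3.08, adjusted p = 0.00469).

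Ankrd1 (chr19:36111965-36119844) encodes an ankyrin-repeat protein of nucleus and sarcomere that is a sensitive target of YAP. It was at 218, 310 and 249 CPM with shBrca2-CM, at 82.7, 80.2 and 72.7 CPM with shControl-CM and at 521 and 485 CPM with control medium. Again the groups formed 3 separate levels, and the shControl-CM libraries lay close together (78.5 CPM ± 5.20, SD, n = 3). Ankrd1 fell to 15.6% of the control level with shControl-CM (log2 fold change -2.69, SE 0.16, adjusted p = 2.71e-06) and to 51.4% with shBrca2-CM (log2 fold change -0.96, SE 0.15, adjusted p = 1.56e-07). The mean level of Ankrd1 with shBrca2-CM was 3.30 times that with shControl-CM. Directly compared, its log2 fold change was 1.75 (SE 0.16, 95% interval 1.40 to 2.09, adjusted p = 0.000137).

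Axl (chr7:25756500-25788924), a receptor tyrosine kinase gene, had no called difference. It was at 702, 743 and 602 CPM with shBrca2-CM, at 677, 426 and 575 CPM with shControl-CM and at 436 and 543 CPM with control medium. The shBrca2-CM libraries all lay above control medium, and the shControl-CM libraries overlapped both other groups. With shBrca2-CM Axl stood at 139% of the control level, with an adjusted p of 0.00442, but its log2 fold change of 0.48 (SE 0.14) was below the threshold on size. It passed in 3 of 15 alternative settings, among them those without shBrca2-CM replicate 3 (0.57, adjusted p = 0.00374) or control medium replicate 2 (0.65). The log2 fold change was 0.19 with shControl-CM against control medium (SE 0.20, adjusted p = 0.503) and 0.31 between the conditioned media (SE 0.16, adjusted p = 0.466).

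**Figure D3:**
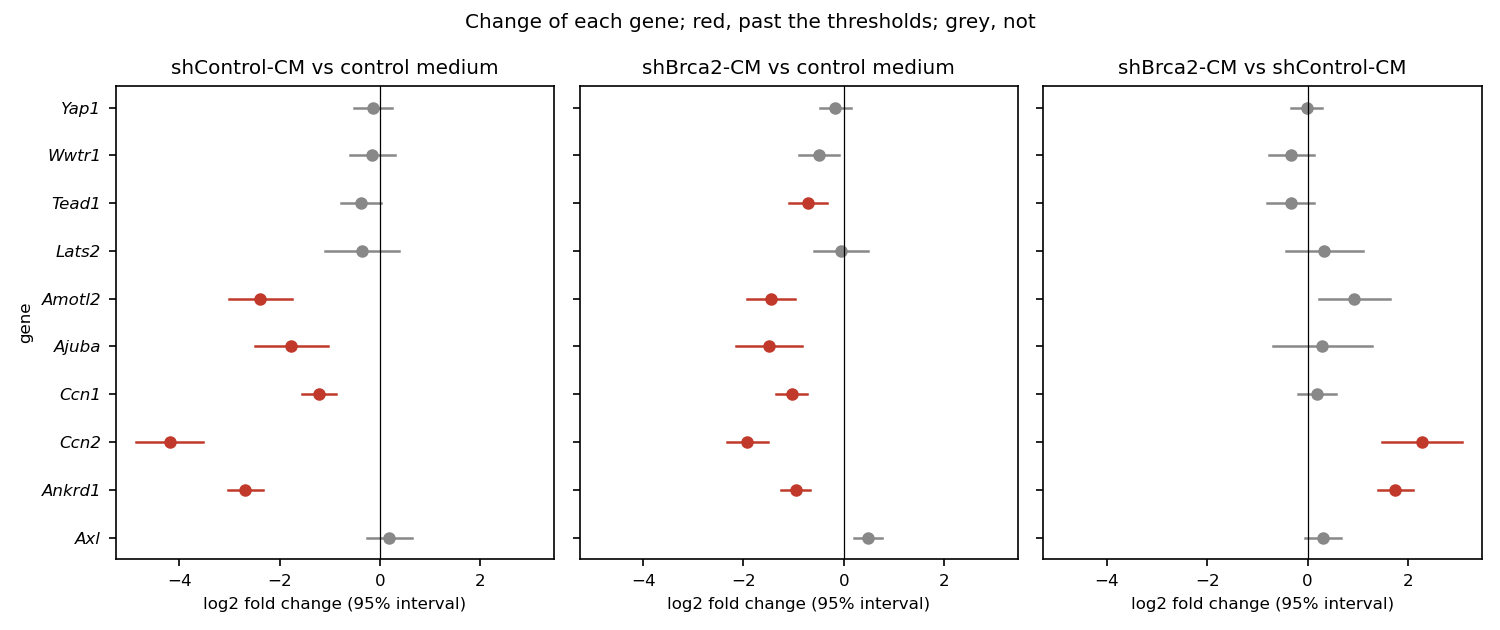
Log2 fold change of each gene (points) with its 95% interval (lines) in the 3 comparisons, on a common x axis; red marks a called difference and grey marks none. Against control medium 5 genes fell with shControl-CM and 6 with shBrca2-CM, and between the conditioned media Ccn2 and Ankrd1 were higher with shBrca2-CM.

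Counted together, 5 of the 10 genes fell with shControl-CM against control medium (Amotl2, Ajuba, Ccn1, Ccn2 and Ankrd1) and none rose, where 18.9% of all tested genes were called lower and 18.2% higher. With shBrca2-CM against control medium, those 5 and Tead1 fell and none rose, where 19.2% of all genes were called lower and 18.6% higher. Between the conditioned media 2 of 10 were higher with shBrca2-CM and none was lower, where 1.54% of all genes were called higher and 1.55% lower. The counts of 0 were also 0 by either test of DESeq2 (likelihood ratio or Wald). At an unadjusted p below 0.05 edgeR gave 0 of the 10 genes lower between the conditioned media, 0 higher with shControl-CM than with control medium, and 1 (Axl) higher with shBrca2-CM than with control medium. The share of all genes under that p-value was not counted. The median log2 fold change of the 10 genes was -0.80 with shControl-CM, -0.84 with shBrca2-CM and 0.30 between the conditioned media, beside medians of -0.10, -0.05 and 0.03 over all genes tested. The groups did not overlap for 6 of 10 genes with shControl-CM against control medium, for 8 with shBrca2-CM and for 4 between the conditioned media, where 59.9%, 57.4% and 19.8% of all genes did not overlap. The count of 6 is thus at its background. In bulk RNA, fewer cells that express a gene and less of its RNA per cell cannot be told apart. Between replicates, shBrca2-CM replicate 2 had the highest value of its group for 6 genes (Amotl2, Ajuba, Ccn1, Ccn2, Ankrd1 and Axl), and replicate 1 had the lowest for 5. In the same way shControl-CM replicate 1 was highest of its group for 6 genes (Tead1, Lats2, Ajuba, Ccn1, Ankrd1 and Axl), and replicates 2 and 3 were each lowest for 4. The order of libraries over all genes was not counted, so these counts are not shown to be particular to the 10 genes.

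Targets beyond the 10 genes were read from lists taken from general knowledge of the pathway, but chosen with earlier results of these data known. The conserved YAP/TAZ target signature, without the genes above, held 16 genes, all tested. With shControl-CM 8 of them fell and 1 rose against control medium, and with shBrca2-CM 10 fell and 2 rose. Between the conditioned media 1 was higher with shBrca2-CM and 1 lower. By either test of DESeq2, 7 fell and 1 rose with shControl-CM, and 8 fell and 1 rose with shBrca2-CM. Tgfb2, among the 10 that fell, had at most 3 counts in each shBrca2-CM library. Over all genes 18.9% were called lower and 18.2% higher with shControl-CM, 19.2% and 18.6% with shBrca2-CM, and 1.55% and 1.54% between the conditioned media. The median log2 fold changes of the 16 genes were -1.10, -1.09 and 0.29. F3, which encodes tissue factor, the initiator of blood coagulation, was at 27.5, 37.3 and 38.2 CPM with shBrca2-CM, at 14.7, 10.6 and 10.9 CPM with shControl-CM and at 237 and 245 CPM with control medium. F3 thus had the same order of media as Ccn2 and Ankrd1, with 3 levels that did not overlap. Relative to control medium F3 changed by -4.30 on the log2 scale with shControl-CM (SE 0.22, adjusted p = 8.80e-07) and -2.78 with shBrca2-CM (SE 0.19, adjusted p = 2.26e-20), and it was 1.52 between the conditioned media (SE 0.29, adjusted p = 0.0150).

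Nt5e, which encodes the ecto-nucleotidase CD73 that makes extracellular adenosine, had the opposite pattern. It was at 7.23, 8.71 and 9.76 CPM with shBrca2-CM, at 52.5, 43.5 and 32.6 CPM with shControl-CM and at 3.13 and 2.15 CPM with control medium. Nt5e rose with shControl-CM (log2 fold change 3.98, SE 0.36, adjusted p = 4.69e-05) and less with shBrca2-CM (1.69, SE 0.46, adjusted p = 0.00296), and was lower with shBrca2-CM than with shControl-CM (-2.26, SE 0.33, adjusted p = 0.00199). Among the others, Rbms3, an RNA-binding protein gene, fell by 3.44 and 1.68 on the log2 scale with shControl-CM and shBrca2-CM (SE 0.75 and 0.47, adjusted p = 0.00186 and 0.000821), from 12.7 and 14.6 CPM in control medium. It had 4, 0 and 1 counts in the shControl-CM libraries, where 2 of 3 were below the floor of 3 counts, and 3, 4 and 4 counts in the shBrca2-CM libraries. Ccdc80, a secreted matrix protein gene, fell by 2.20 with shControl-CM (SE 0.21, adjusted p = 6.37e-05). Foxf2, a mesenchymal transcription factor gene, fell by 1.63 with shBrca2-CM (SE 0.32, adjusted p = 7.42e-06). Fjx1, the other gene of the list called higher with shBrca2-CM than with control medium, did so by 0.61 (SE 0.29, adjusted p = 0.0996) and was not called there by DESeq2 or without the filter on low counts. Between the conditioned media Fjx1 narrowly missed (1.48, SE 0.42, adjusted p = 0.101) with groups that did not overlap, and it was called with total counts and without the filter.

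Of 7 further genes often reported as YAP targets, many of which other factors also drive, 3 fell with each conditioned medium against control medium, none rose, and 2 of the 6 tested were higher with shBrca2-CM than with shControl-CM, where 18.9%, 19.2% and 1.54% of all genes were called in these directions. The 3 that fell were Ccnd1, Myc and Thbs1 in both cases. Ccnd1, the cyclin D1 gene of cell cycle entry, was at 70.9, 82.1 and 51.5 CPM with shBrca2-CM, at 13.5, 18.4 and 12.2 CPM with shControl-CM and at 164 and 201 CPM with control medium. These are 3 separate levels in the same order as those of Ccn2. The log2 fold change of Ccnd1 against control medium was -3.67 with shControl-CM (SE 0.23, adjusted p = 3.31e-06) and -1.44 with shBrca2-CM (SE 0.18, adjusted p = 2.99e-10), and it was 2.24 between the conditioned media (SE 0.27, adjusted p = 0.000701).

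Thbs1, which encodes the matricellular protein thrombospondin-1, was at 91.1, 212 and 128 CPM with shBrca2-CM, at 89.1, 63.8 and 39.4 CPM with shControl-CM and at 214 and 239 CPM with control medium. It was higher with shBrca2-CM than with shControl-CM (log2 fold change 1.18, SE 0.31, adjusted p = 0.0874), and the lowest shBrca2-CM library exceeded the highest shControl-CM library by little. Against control medium Thbs1 fell by 1.82 on the log2 scale with shControl-CM (SE 0.27, adjusted p = 0.000853) and by 0.65 with shBrca2-CM (SE 0.17, adjusted p = 0.00145), and the latter was not called by DESeq2. Myc, a growth regulator gene, fell by 1.21 with shControl-CM (SE 0.25, adjusted p = 0.00505) and by 1.11 with shBrca2-CM (SE 0.23, adjusted p = 3.07e-05), with no called difference between the conditioned media (0.12, SE 0.30, adjusted p = 0.911). The median log2 fold changes of these further genes were -1.21, -0.65 and 0.02.

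**Figure D4:**
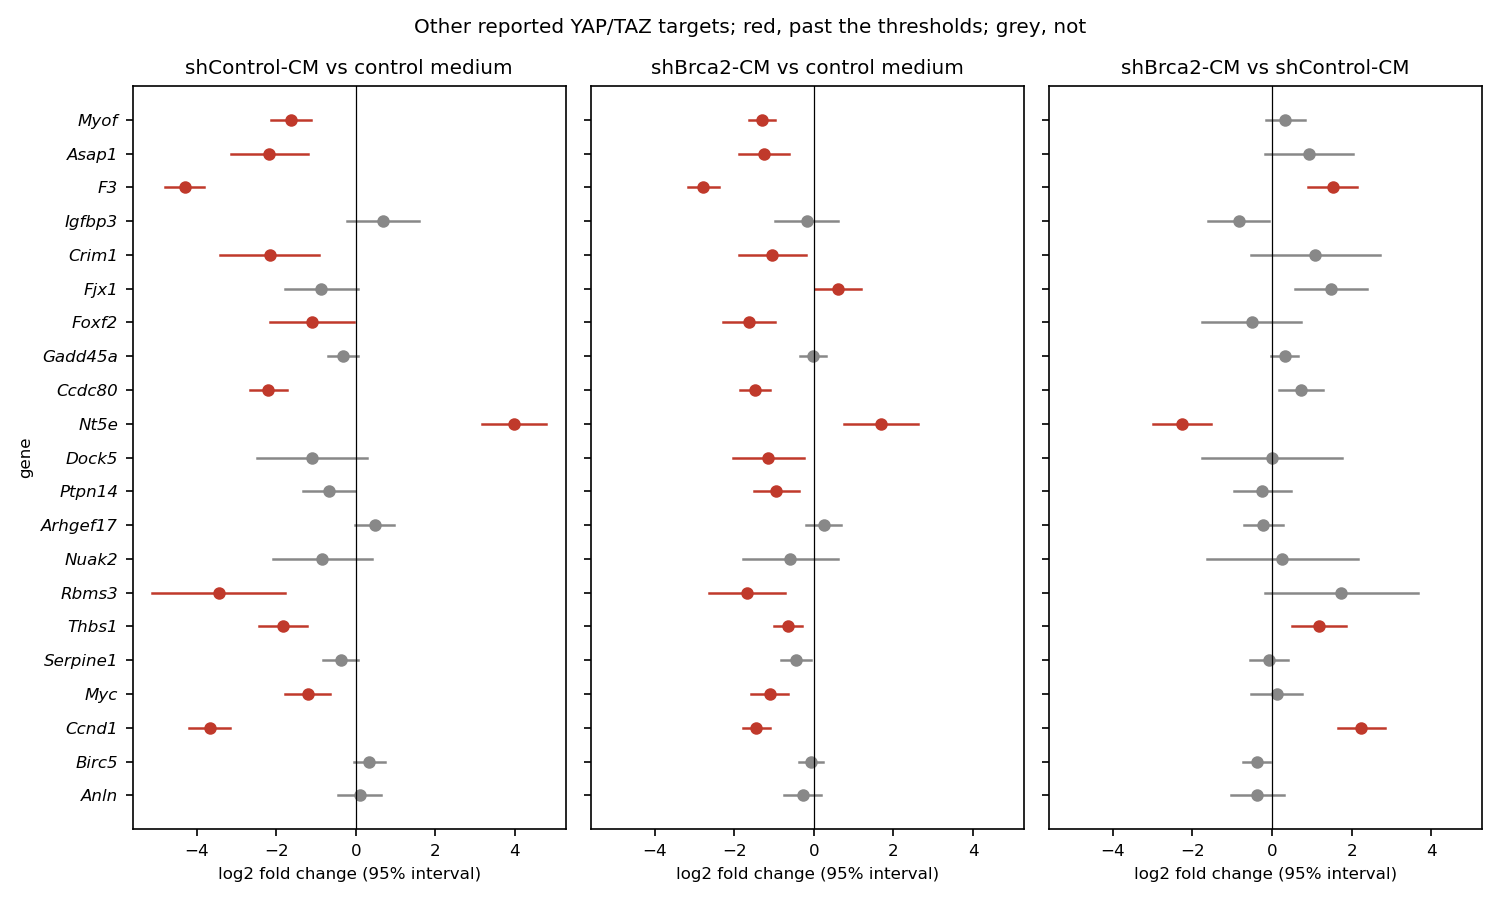
Log2 fold change (points) with 95% interval (lines) of the other YAP/TAZ targets in the 3 comparisons, on a common x axis; red marks a called difference and grey marks none. Edn1 and Tgfb2, which had a group at or under the floor, are not drawn; F3, Ccnd1 and Thbs1 were called in all 3 comparisons, higher with shBrca2-CM than with shControl-CM and lower with either than with control medium.

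Of 20 Hippo kinases and upstream regulators, 19 were in the table (not Mob1a). With shControl-CM 4 rose and 6 fell against control medium, with shBrca2-CM 7 rose and 4 fell, and between the conditioned media none of the 17 tested was called. Of all genes 18.2% were called higher and 18.9% lower with shControl-CM, and 18.6% and 19.2% with shBrca2-CM. Between the conditioned media 3.09% were called in either direction. The 4 that rose, the 4 that fell and the lack of calls between the conditioned media are thus near the background. The 6 that fell with shControl-CM include Fat4, which had at most 3 counts in each shControl-CM library, and they numbered 8 with total counts and 4 with either test of DESeq2. Between the conditioned media no gene of the list was called by either DESeq2 test. At an unadjusted p below 0.05 edgeR gave 3 higher (Stk3, Amot and Dchs1) and 1 lower (Map4k4). The share of all genes under that p-value was not counted, so these are not shown to exceed it. The median log2 fold changes were -0.32, -0.07 and 0.04. Among the kinases of this list the directions were mixed. Taok1, a kinase that activates the Hippo kinases, rose from 2.26 and 1.50 CPM in control medium to 28.8, 34.8 and 39.4 CPM with shControl-CM (log2 fold change 4.13, SE 0.37, adjusted p = 3.68e-05) and to 26.0, 27.4 and 25.7 CPM with shBrca2-CM (3.75, SE 0.40, adjusted p = 7.16e-13). Map4k4, which phosphorylates LATS kinases, rose by 2.15 on the log2 scale with shControl-CM (SE 0.17, adjusted p = 3.05e-05) and by 1.75 with shBrca2-CM (SE 0.16, adjusted p = 1.31e-13). Stk3, which encodes the Hippo kinase MST2, fell by 2.72 with shControl-CM (SE 0.55, adjusted p = 0.00252). It was at 19.6 and 19.1 CPM with control medium and at 5.77, 0.97 and 1.36 CPM with shControl-CM, where 2 of 3 libraries were below the floor of 3 counts.

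The scaffold genes of the KIBRA family fell with both conditioned media under TMM, DESeq2's size factors and total counts. Wwc2 fell by 2.34 with shControl-CM (SE 0.28, adjusted p = 0.000219) and by 2.28 with shBrca2-CM (SE 0.32, adjusted p = 5.75e-10), and Wwc1 fell by 1.89 with shBrca2-CM (SE 0.32, adjusted p = 1.91e-07). Of the angiomotin genes other than Amotl2, Amot fell by 2.65 with shControl-CM (SE 0.75, adjusted p = 0.0102), from 9.21 and 9.46 CPM to 3.20, 0 and 0.68 CPM, while Amotl1 was called higher by 1.07 (SE 0.22, adjusted p = 0.00565). Amotl2 and Amotl1, which encode related proteins, were thus called in opposite directions with shControl-CM, and likewise with shBrca2-CM (-1.46 and 1.06).

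Of 7 other TEAD factors and VGLL cofactors, which compete with YAP and TAZ for TEAD, 5 were in the table (not Vgll1 and Vgll2). The single called difference was Tead2, which fell with shControl-CM against control medium (log2 fold change -0.62, SE 0.21, adjusted p = 0.0466), and 1 of 5 is near the 18.9% of all genes called lower there. It was at 66.6, 104 and 83.5 CPM with shControl-CM, at 111, 102 and 94.1 CPM with shBrca2-CM and at 113 and 144 CPM with control medium. With shBrca2-CM Tead2 and Tead3 had adjusted p-values below 0.1 at log2 fold changes of -0.33 and -0.41, under the threshold on size. None of the 4 genes tested between the conditioned media was called there, none had an unadjusted p below 0.05 and none was called by DESeq2, in a comparison where 3.09% of all genes were called. The medians of the group were -0.62, -0.28 and 0.27.

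To place the pattern of Ccn2 among all genes, each gene's log2 CPM was centred on its mean over the 8 libraries, and the root mean square difference from Ccn2 was taken for 9526 genes with at least 10 counts per library on average. The nearest gene was Ccnd1 (difference 0.325 on the log2 scale), followed by Scx, a tendon transcription factor gene (0.354), and Vegfd, a lymphatic growth factor gene (0.403). Mean levels with control medium, shBrca2-CM and shControl-CM were 35.9, 10.6 and 3.17 CPM for Scx and 284, 42.3 and 15.1 CPM for Vegfd. Among the other genes of the system, Ankrd1 ranked 24 (0.602), Amotl2 71 (0.796), Ajuba 401 (1.11) and Ccn1 716 (1.21). Lats2 ranked 3172 (1.50), Tead1 3981 (1.56), Yap1 4180 (1.58), Wwtr1 4233 (1.58) and Axl 5560 (1.68), so Axl lay further from the pattern of Ccn2 than the factor genes did. This difference depends on the size of a change as well as its direction. Genes with small changes therefore lie far from Ccn2 in either direction. The genes nearest to Tead1 were 9430038I01Rik (0.114), Fermt2 (0.133), which encodes the integrin activator kindlin-2, and Inpp4a (0.135), a phosphoinositide phosphatase gene. Fermt2 was at 24.6 CPM with control medium, 15.3 with shBrca2-CM and 23.1 with shControl-CM. Depth differed between the media as well, and its part in this ranking was not tested.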

How the data were processed

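RNA of 8 PSC domes was sequenced as 3′-end MARS-seq libraries on a NextSeq instrument. The authors deposited raw read counts per gene for 12160 genes, without normalization and without pooling domes. The submitters' processing notes name bcl2fastq, cutadapt, STAR 2.4.2a, HTSeq, DESeq2 and the build mm10; the annotation, the gene filter and the use of molecular identifiers are not given in the sources used here. Groups came from sample titles, and 1 further per-sample column, named like those of the control medium, had no matching sample and was left out.

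Each pair of groups was fitted alone in R 4.3.3 with edgeR 4.0.16 by its quasi-likelihood test, after TMM normalization and with genes whose counts summed to at least 10 in that pair; p-values were adjusted by Benjamini-Hochberg over all genes tested. The standard error came from the fitted model's Fisher information and the quasi-likelihood variance. Domes of a group are biologically independent according to the study, but come from 1 line, so p-values measure the spread between domes of that line. Intervals of 95% cover that spread, and the floor of 3 counts covers counting error only. The number of hairpins, organoid lines and batches of conditioned medium behind each group is not given in the sources used here. Spread between these is therefore not known to be covered. Replicate numbers were not used to pair samples. The test was checked on counts simulated from its own fitted spread, with large changes in well-counted genes only. That check says little about genes with few counts.

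The 10 genes, the 4 other lists and the markers were chosen with earlier results of these data known. Named from each list and comparison were up to 4 called genes with the largest absolute log2 fold change among those with over 3 counts in at least 1 library of each group; members of small counts and Amotl1, Fjx1, Tead3, Dcn, Vim, Pdgfra and Lum were named after their values were seen. Genes named nearest to Ccn2 and Tead1 were the 3 with the smallest difference (prior count 2 on log2 CPM). Alternatives were DESeq2 1.42.0, other scalings, filters and thresholds, 1 fit for all 3 groups, thinned counts, a replicate block and each library left out. Promoters came from RefSeq GRCm38.p6.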

Additional observations from a re-analysis of the deposited data

How the results depend on the processing

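Ccn2 and Ankrd1 were higher with shBrca2-CM than with shControl-CM in all 16 alternatives, with log2 fold changes of 1.97 to 2.71 (adjusted p 0.000519 to 0.0509) and 1.60 to 1.86 (adjusted p at most 0.00271), and no other of the 10 genes was called there. Amotl2, Ajuba, Ccn1, Ccn2 and Ankrd1 were lower with shControl-CM than with control medium in all 15 alternatives. With shBrca2-CM, Tead1 (-0.72) and Ankrd1 (-0.96) lost their calls against control medium where an adjusted p under 0.05 and a log2 fold change over 1 were asked for, which also cut the genes called to 130 between the conditioned media, 2377 with shControl-CM and 2183 with shBrca2-CM. Wwtr1, just short of the threshold on size, was called lower in 5 of 15 alternatives (-0.51 to -0.62), among them no filter and thinned libraries. Thinning every library to the smallest total left 2903 genes called with shControl-CM against control medium.

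Leaving out each library in turn gave 128 (without shBrca2-CM replicate 2) to 976 (without shControl-CM replicate 1) genes called between the conditioned media, 175, 160 and 166 without shBrca2-CM replicate 1, shBrca2-CM replicate 3 and shControl-CM replicate 2, 1901 (without control replicate 1) to 5157 with shControl-CM and 3903 to 4511 with shBrca2-CM, and 2269 with shControl-CM without control replicate 2. With 1 control library left, that group was assumed to vary like the other. Of the 10 genes, 0 to 1 was then called higher with shBrca2-CM than with control medium, namely Axl without shBrca2-CM replicate 3 (0.57) or control replicate 2 (0.65). The genes called lower numbered 6 to 7 with shBrca2-CM and 5 to 6 with shControl-CM. Changes of sign occurred only in values that were not called. Between the conditioned media, they were Yap1 at 0.0976 with total counts and -0.0850 to 0.0402 over the left-out libraries, Lats2 at -0.0283 in thinned libraries, and Ajuba at -0.0855 to 0.526 over the left-out libraries. Against control medium, the left-out libraries gave Yap1 at -0.326 to 0.0922 with shControl-CM and -0.344 to 0.0456 with shBrca2-CM, and Lats2 at -0.131 to 0.0538 with shBrca2-CM. The causes were not tested.

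Samples share replicate numbers, but their deviations did not follow them (r = -0.03, -0.01 and 0.12 for same-numbered shBrca2-CM and shControl-CM libraries), and not every sample correlated best with its own number. A fit with the replicate number as a block called 311, 4513 and 3850 genes and changed 1 call of the 10 genes, Axl, called higher with shBrca2-CM than with control medium (0.57, adjusted p = 0.00447, 1 gene in place of 0). Protein motifs, planned for Yap1 and Wwtr1, were not run. The lowest counts of the 10 genes were those of Ajuba, with 4 to 15 per library with conditioned medium, and of Ccn2, with 6 to 11 in the shControl-CM libraries.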
